A study of Schizosaccharomyces pombe with 37 samples.

Results

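The genes at the 2 ends of chromosome I were followed in fission yeast, *Schizosaccharomyces pombe*, by RNA-seq of total RNA. A gene was included when its systematic identifier began with SPAC212, SPAC977, SPAC1F8 or SPAC11D3, which lie at the left end, or with SPAC1039, SPAC869, SPAC186 or SPAC750, which lie at the right end. This rule matched 96 rows of the table, and 9 of them were left out by name because they belong to families or single genes handled apart (*pfl6*, *pfl8*, *pfl9*, *ght3*, *pdc101*, *dak2*, *str3*, *put4* and *isp5*). The remaining 87 genes of 6996 features are described here as the end-proximal genes. No measured value was used to choose them. Of the 87, 86 were found in the RefSeq annotation of assembly ASM294v3, all on chromosome I, with 50 at the left end and 36 at the right end. They comprise 81 protein-coding genes and 5 pseudogenes. SPAC11D3.20 was not matched.

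The study asked which parts of the cleavage and polyadenylation machinery protect a gene from small-RNA-directed silencing. RNA came from 9 mutant strains and wild-type cells (wt), with 3 replicate libraries each, 30 in all. Every strain, wt included, was h- and carried leu1-32, ura4-D18, ade6-704 and the *ade6*+ reporter inserted at *trp1*+, and none carried the hairpin that makes primary *ade6* siRNAs. The point mutants *yth1-R59C* and *pfs2-F115H* (the second marked with kanMX) affect 2 subunits of the cleavage and polyadenylation factor (CPF). In *ssu72D*, *dis2D*, *ppn1D* and *swd22D* a subunit of the phosphatase module of CPF was, by the labels, replaced by kanMX. In PAS-T4A, PAS-T4C and PAS-T4G only the polyadenylation signal of the reporter was, by the labels, changed, at 1 base. Cultures grew exponentially in rich medium at 30 °C, and the sources do not say whether the replicates of a strain came from separate clones, so that the p-values cover the spread between these libraries.

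In fission yeast the regions next to the telomeres hold duplicated genes and are packed into heterochromatin, in which the methyltransferase Clr4 marks histone H3 and Swi6 binds the mark. Genes there are kept at low levels during growth in rich medium, and many of them encode transporters and enzymes for scarce nutrients or genes used in stationary phase and sporulation. Silencing of such genes can be inherited from cell to cell, so that isogenic cells may differ.

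Levels are given as CPM, the read count of a gene scaled to the total of its library. Libraries held between 1031965 and 6344396 counted reads, those of wt between 3713098 and 6344396. A level of 3 reads, used below as the limit of detection, corresponded to 0.473 CPM in the deepest and 2.91 CPM in the shallowest library. No reads were counted on *ssu72*, *dis2* and *swd22* in their own deletion strains. In the 3 libraries labelled ppn1D, *ppn1* had 79.9 ± 5.36 CPM, against 73.2 ± 9.07 CPM in wt (SD, n = 3 each), which goes against that label. They are therefore called the libraries labelled ppn1D throughout. *yth1* had 13.6 ± 0.838 CPM in *yth1-R59C* and 13.9 ± 2.79 CPM in wt. Its level was 5.96 ± 1.20 CPM in PAS-T4G, 8.12 ± 2.03 CPM in PAS-T4C and 9.35 ± 1.47 CPM in PAS-T4A. *pfs2* had 23.3 ± 3.15 CPM in *pfs2-F115H*, against 42.5 ± 4.66 CPM in wt (SD, n = 3 each). What these levels mean for the end-proximal genes was not tested.

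The counted levels of the end-proximal genes were lowest nearest to the ends. No read was counted on 16 of the 87 genes in any library (18.4%), against 341 of all 6996 features (4.87%). At the left end, the 12 SPAC212 genes had a median of 0 CPM in wt, and 1 of them was measured well enough to be tested. The outermost of these, *tlh1*, which encodes a RecQ type DNA helicase, had 1 read over all 30 libraries. Further in, SPAC11D3 genes had a median of 23.6 CPM in wt. At the right end, the 8 SPAC750 and the 8 SPAC186 genes both had a median of 0 CPM in wt, SPAC869 genes 1.80 CPM and SPAC1039 genes 36.0 CPM.

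Read placement bears on the outermost genes, because reads that match several places were not counted. Of the 86 matched genes, 54 had every window of 50 bases occurring once in ASM294v3, and in 30 under 50% of the windows occurred once. The 16 genes without a read in any library are all among these 30, with at most 24.5% of windows occurring once (*ftm2*). The median share of such windows was 7.83% in SPAC212, 21.0% in SPAC977 and 3.81% in SPAC750. A level of 0 in these genes can therefore not be told apart from reads that could not be placed. This does not hold for SPAC186, where 7 of 8 genes consist fully of windows that occur once, and which were nevertheless at or near 0 in wt. SPAC1F8, SPAC11D3, SPAC869 and SPAC1039 genes that were matched also consisted fully of such windows. The plot of level by gene order shows both ends.

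**Figure D1:**
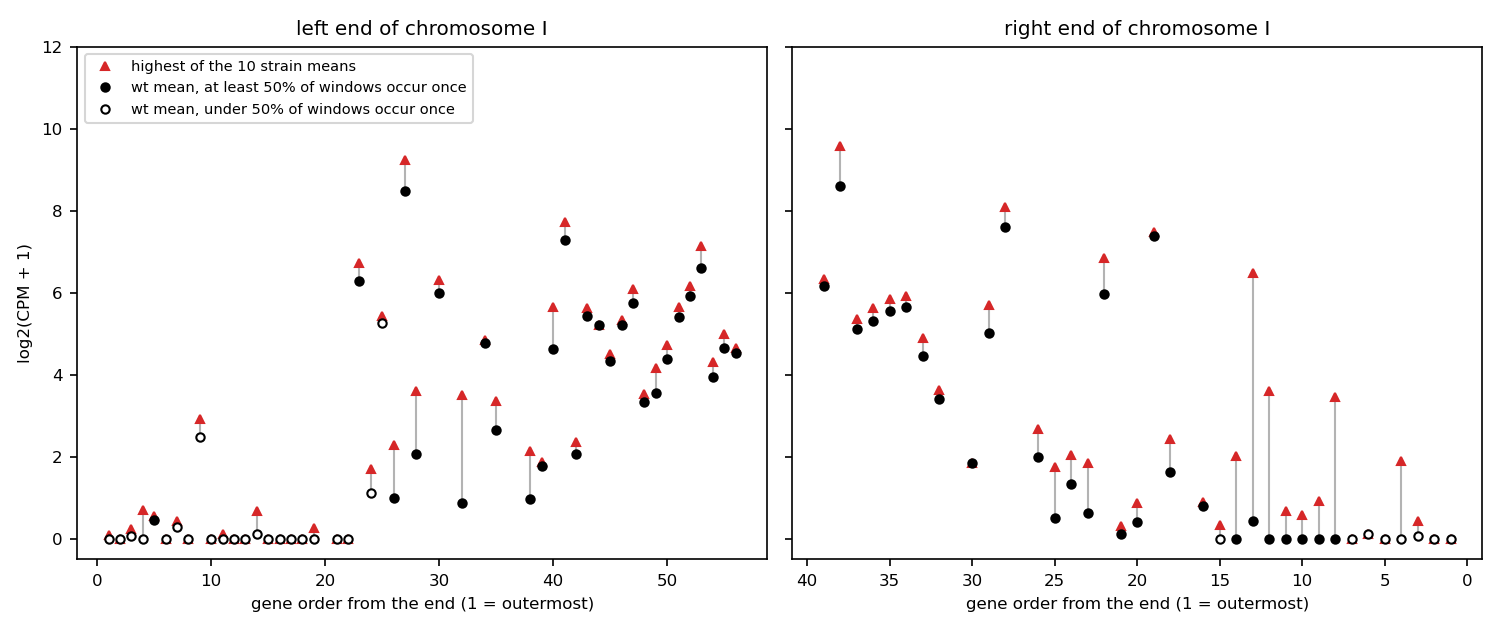
Level of the end-proximal genes on the log2(CPM + 1) scale by their order from the left or the right end of chromosome I (1 is the outermost gene). Red triangles are the highest of the 10 strain means and circles the wt mean, open where under 50% of the windows of 50 bases occur once. The 8 SPAC186 and 8 SPAC750 genes nearest to the right end had a median of 0 CPM in wt, and *gdt1*, at position 13, reached 89.2 CPM in *pfs2-F115H*.

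Per kb of exon, the most abundant end-proximal gene in wt was SPAC977.14c, an aldo-keto reductase, at 291 CPM per kb. SPAC11D3.02c, annotated as an acetyltransferase, followed at 226 CPM per kb, and SPAC1039.02, a phosphoprotein phosphatase, at 198 CPM per kb. *yhb1*, which encodes a nitric oxide dioxygenase, stood at 82.9 CPM per kb, and *cat1*, a plasma membrane transporter of arginine and lysine, at 82.6 CPM per kb. The last 2 levels are closer than the spread between wt libraries. All 5 lie further from the ends than the SPAC212, SPAC750 and SPAC186 genes, and in SPAC977.14c 70.9% of the windows occur once.

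For the tests, each mutant was compared with wt on log2(CPM + 1) with limma. A gene was tested where its mean over the 30 libraries was at least 1 CPM. It was called where it changed 2-fold or more with an adjusted p under 0.05. Of the end-proximal genes, 50 (57.5%) passed this filter, 30 at the left end and 20 at the right end, against 84.5% of all features, and 37 did not. Of the 50 genes tested, 7 had a wt mean under 1 CPM and passed the filter through other strains, so that they had to differ somewhere. All 4 calls below in *yth1-R59C* and all in the 3 PAS strains were in genes with a wt mean under 1 CPM. So were 5 of 7 in *pfs2-F115H* and 1 of 3 in *dis2D*. The counts of these strains therefore do not support a difference from the share over all features.

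Over the 9 comparisons, which share their wt libraries, 26 calls were made in 14 genes. In *yth1-R59C*, 4 of 50 genes were called, all higher, where 0.812% of all 5911 features tested were called and 0.677% were called higher. *pfs2-F115H* had 7 calls (3.13% of all features), 5 higher (2.62%) and 2 lower (0.508%). In *ssu72D*, 3 were called (3.47%), 1 higher (2.96%) and 2 lower (0.508%), and in *dis2D* 3 (2.01%), 2 higher (1.30%) and 1 lower (0.711%). *swd22D* had 4 calls (2.89%), all lower (1.73%). PAS-T4A had 1 gene called (0.288%), which was higher (0.0677%), and PAS-T4C also 1 (0.169%), higher (0.0169%). PAS-T4G had 3 calls (0.524%), all higher (0.0677%). In the libraries labelled ppn1D limma called 0 of 50, where 0.711% of all features were called; 8 of the 50 had an unadjusted p under 0.05, and edgeR called 1, SPAC11D3.01c. Single libraries moved some counts. In *ssu72D* 1 gene was called without replicate 3, in *swd22D* 7 without replicate 3, and in PAS-T4A 3 without replicate 2. In PAS-T4G 6 were called without replicate 1 and 5 without replicate 3, and in the libraries labelled ppn1D 1 was called without wt replicate 3. In PAS-T4C 0 were called without replicate 1, without replicate 2 or without wt replicate 3, and 2 without replicate 3.

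A test for any difference among the 10 strains (limma moderated F) passed for 37 of 50 end-proximal genes, 74%, against 60.1% of all features. The 50 include the 7 genes with a wt mean under 1 CPM, which passed the filter through other strains. The 74% therefore does not support a difference from the share over all features. All 4 calls of *yth1-R59C* lay at the right end, and in *pfs2-F115H* 4 lay at the right end and 3 at the left end. The heat map of the 14 called genes gives every fold change.

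**Figure D2:**
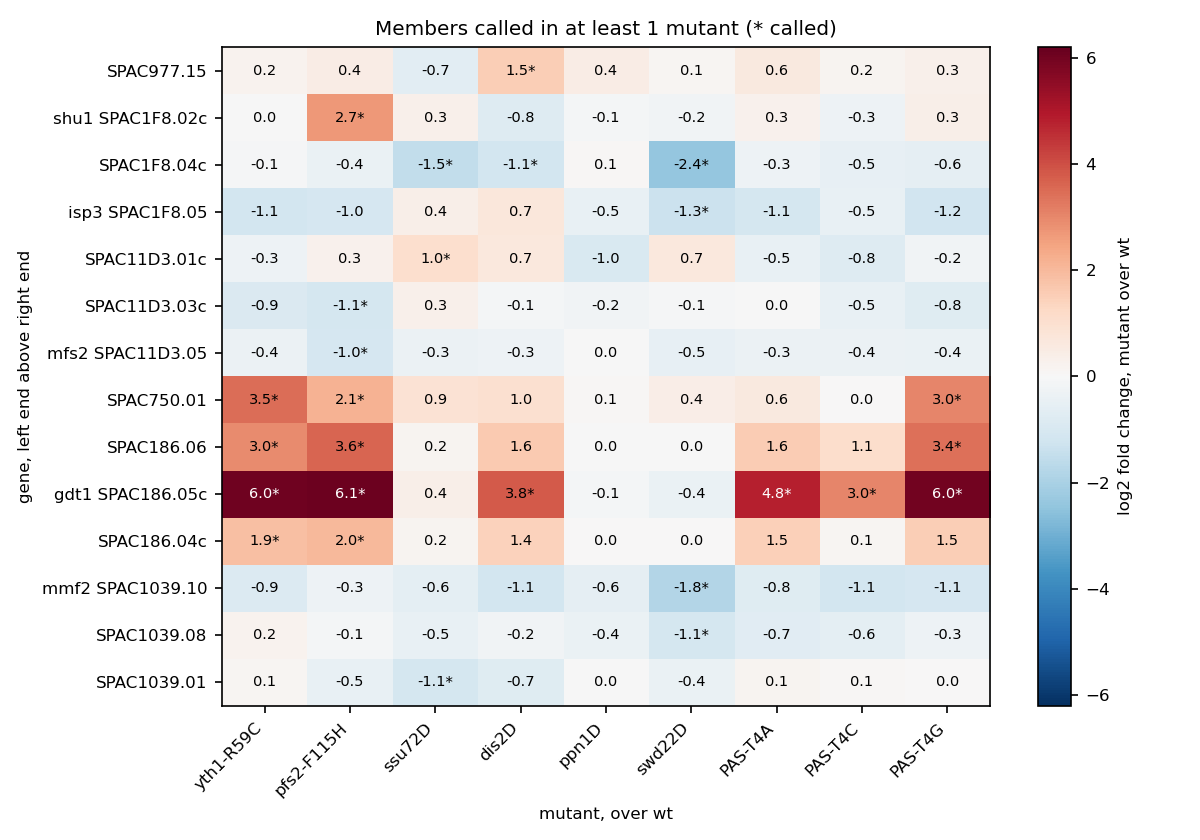
Log2 fold change over wt, on the log2(CPM + 1) scale, of the 14 end-proximal genes called in at least 1 of the 9 mutants, with the left end above the right end. An asterisk marks a call at an adjusted p under 0.05 and at least 2-fold. *gdt1* was called higher in 6 mutants, and SPAC1F8.04c lower in 3.

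The largest differences were in a run of neighbouring genes at the right end that were silent or nearly silent in wt. *gdt1* (SPAC186.05c) encodes a GDT1-like protein, and its relative in budding yeast, Gdt1, is a Golgi transporter of calcium and manganese. It had 78.7, 82.9 and 92.3 CPM in *yth1-R59C*, 88.8, 84.5 and 94.2 CPM in *pfs2-F115H* and 80.0, 83.0 and 81.7 CPM in PAS-T4G, against 0.752, 0.315 and 0 CPM in wt. The wt values correspond to 5 reads in all. The 3 groups of mutant libraries lie far above the wt libraries and have little spread. In 3 further strains, *gdt1* had 27.6, 7.06 and 25.5 CPM in *dis2D*, 51.5, 12.0 and 73.4 CPM in PAS-T4A, and 48.2, 24.8 and 0 CPM in PAS-T4C. Replicate 3 of PAS-T4C thus had no read, as did wt replicate 3, and the PAS-T4C and wt libraries overlap. It stayed at 0.175, 1.16 and 0.974 CPM in *ssu72D*, at 0.499, 0.161 and 0 CPM in the libraries labelled ppn1D and at 0 CPM in all 3 *swd22D* libraries.

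On the log2(CPM + 1) scale, *gdt1* rose by 6.02 ± 0.72 in *yth1-R59C* (SE, limma, adjusted p = 6.22e-07), by 6.09 in *pfs2-F115H* (adjusted p = 1.85e-07) and by 5.97 in PAS-T4G (adjusted p = 1.07e-06). The rise was 4.81 in PAS-T4A (adjusted p = 3.85e-05), 3.79 in *dis2D* (adjusted p = 0.000421) and 3.04 in PAS-T4C (limma, adjusted p = 0.0127). The wt mean, 0.356 CPM, lies under the level of 3 reads per wt library, 0.678 CPM. Against that level *gdt1* was at least 125-fold higher in *yth1-R59C*, 132-fold in *pfs2-F115H* and 120-fold in PAS-T4G. The call in PAS-T4C was lost without PAS-T4C replicate 1 (1.94, adjusted p = 0.144), without PAS-T4C replicate 2 (2.41, adjusted p = 0.109) and without wt replicate 3 (limma, adjusted p = 0.054), and also with a pseudocount of 0.1 (adjusted p = 0.0577) and in the 2-strain fit (limma, adjusted p = 0.0984). RNA was measured in bulk, so that a level set by fewer cells with the gene active and one set by less RNA in each cell cannot be told apart.

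**Figure D3:**
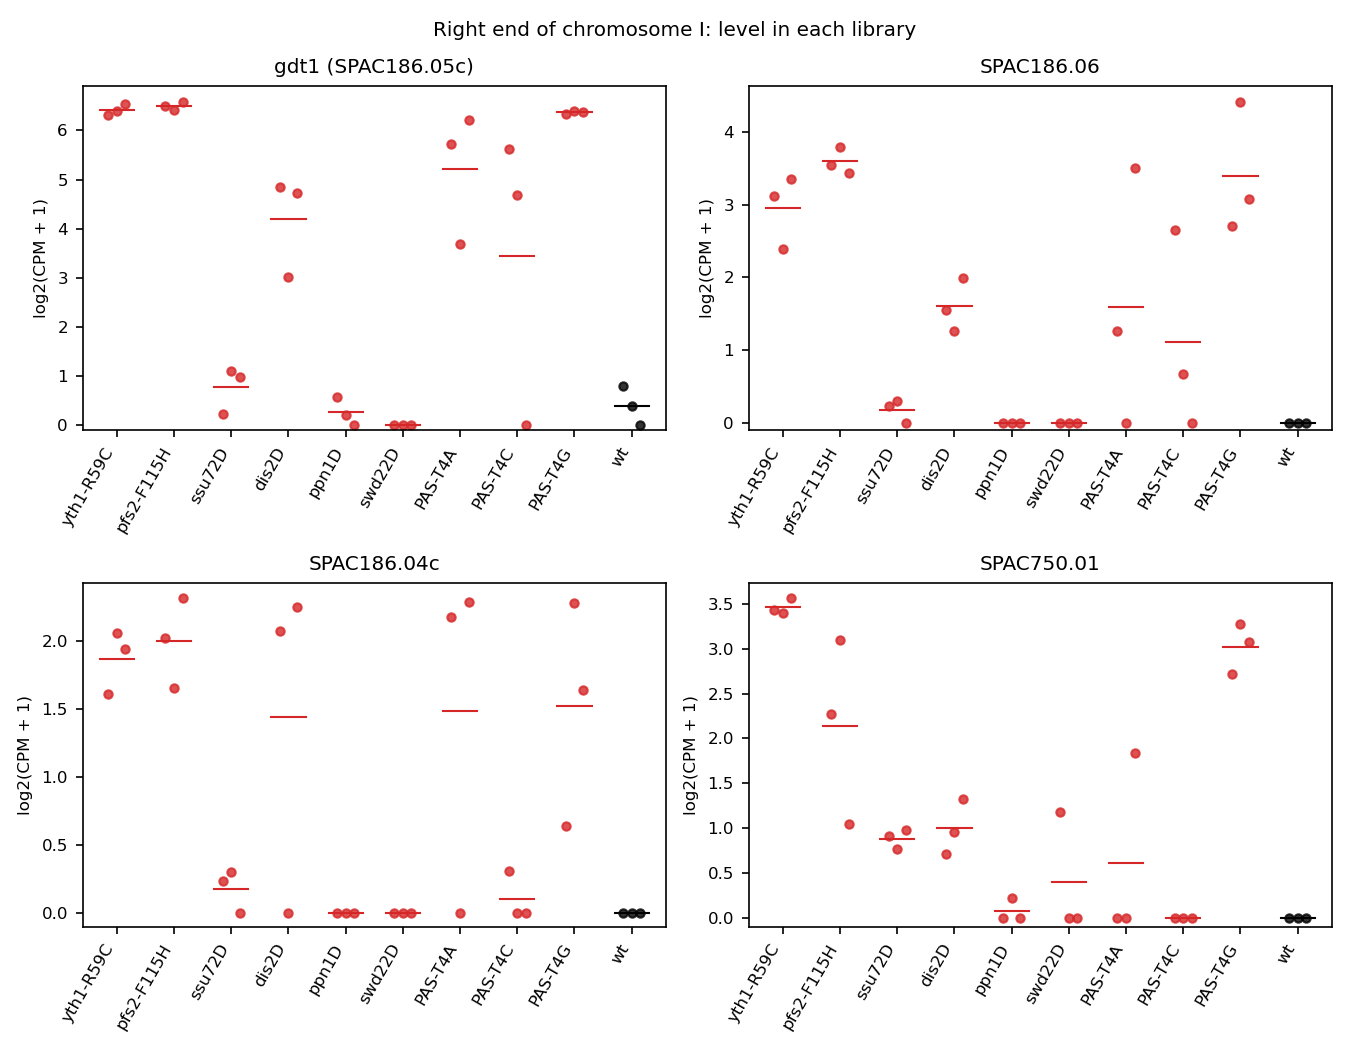
Level of *gdt1*, SPAC186.06, SPAC186.04c and SPAC750.01 on the log2(CPM + 1) scale in each of 30 libraries, by strain, with wt on the right; points are libraries and lines are strain means. *gdt1* lay between 78.7 and 94.2 CPM in *yth1-R59C*, *pfs2-F115H* and PAS-T4G, and between 0 and 73.4 CPM in PAS-T4A and PAS-T4C.

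The genes on both sides of *gdt1* were also called. SPAC186.06, the next gene towards the telomere, is annotated as an isomerase, and had 7.72, 4.23 and 9.20 CPM in *yth1-R59C*, 10.7, 12.9 and 9.79 CPM in *pfs2-F115H*, and 5.56, 20.3 and 7.43 CPM in PAS-T4G, against no read in wt. It rose in all 3 (limma, adjusted p = 0.0011, 2.07e-05 and 0.000113), at least 10.4-fold, 16.4-fold and 16.3-fold over the level of 3 reads per wt library. In PAS-T4A it had 1.41, 0 and 10.3 CPM, in PAS-T4C 5.27, 0.591 and 0 CPM, and in *dis2D* 1.93, 1.41 and 2.99 CPM. None of these 3 was called by limma, while edgeR called all 3 (adjusted p = 0.0108 in PAS-T4A, 0.0197 in PAS-T4C and 0.0453 in *dis2D*).

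SPAC186.04c, the next gene towards the centromere and uncharacterized, had 2.06, 3.17 and 2.83 CPM in *yth1-R59C* and 3.06, 2.15 and 3.97 CPM in *pfs2-F115H*, against no read in wt. It was called in *pfs2-F115H* (limma, adjusted p = 0.00458) and in *yth1-R59C* (limma, adjusted p = 0.0256). The second call was lost on leaving out any of the 6 libraries, with adjusted p between 0.0545 and 0.108. In PAS-T4G, SPAC186.04c had 0.556, 3.86 and 2.12 CPM, not called by limma (adjusted p = 0.0501) but called by edgeR (adjusted p = 0.0109) and without replicate 1 (limma, adjusted p = 0.021), and with a pseudocount of 0.1, no filter or the 2-strain fit. SPAC186.04c had 3.52, 0 and 3.86 CPM in PAS-T4A and 3.21, 0 and 3.74 CPM in *dis2D*, and in both strains replicate 2, which had no read, also had the lowest *gdt1* level. Without replicate 2, SPAC186.04c was called in *dis2D* (limma, adjusted p = 0.00391) and in PAS-T4A (limma, adjusted p = 0.00413), and edgeR called it in both with all libraries (adjusted p = 0.00558 and 0.00548).

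SPAC750.01 encodes an aldo/keto reductase, and 67.2% of its windows occur once. It had 9.77, 9.51 and 10.8 CPM in *yth1-R59C*, 3.83, 7.53 and 1.06 CPM in *pfs2-F115H* and 5.56, 8.68 and 7.43 CPM in PAS-T4G, against no read in wt. All 3 were called (limma, adjusted p = 1.67e-06, 0.000679 and 1.44e-05), and the libraries of each mutant lie above those of wt. In *ssu72D* it had 0.876, 0.696 and 0.974 CPM, around the level of 3 reads. There, and in *dis2D*, edgeR but not limma called it (adjusted p = 0.0167 and 0.0435). Unlike *gdt1*, SPAC750.01 had no read in PAS-T4C, where *gdt1* reached 48.2 CPM.

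The other members of this run were nearly silent throughout. *pdc102*, a pyruvate decarboxylase gene, had 14 reads in all libraries together, the L-lactate dehydrogenase gene SPAC186.08c 6 and the hydroxyacid dehydrogenase gene SPAC186.07c 8. SPAC186.02c, also a hydroxyacid dehydrogenase gene, had 40 reads and did not follow *gdt1*. It had 1.50, 0.473 and 0.269 CPM in wt, 0, 0 and 0.177 CPM in *yth1-R59C*, and 0, 0.965 and 1.59 CPM in PAS-T4G. *ftm4*, which encodes a protein with a transmembrane helix domain, had 36 reads, at 3.09, 0.528 and 4.60 CPM in *yth1-R59C* and 0.556, 0 and 1.06 CPM in PAS-T4G, with none in the other strains. It was too low to be tested. The 16 SPAC186 and SPAC750 genes together had between 101 and 121 CPM in *yth1-R59C*, between 107 and 110 CPM in *pfs2-F115H* and between 92.2 and 119 CPM in PAS-T4G, against between 0.539 and 2.26 CPM in wt. Without *gdt1* these sums were between 18.5 and 28.8 CPM in *yth1-R59C*, between 15.6 and 24.2 CPM in *pfs2-F115H*, between 12.2 and 35.7 CPM in PAS-T4G and between 0.539 and 1.50 CPM in wt.

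Differences between mutants were tested directly in the same fit, in pairs chosen after the values were seen. Of the 50 genes, 3 were called between *dis2D* and *ssu72D* (3.33% of all features), 7 between *dis2D* and the libraries labelled ppn1D (3.59%), 10 between *dis2D* and *swd22D* (3.67%) and 1 between *pfs2-F115H* and *yth1-R59C* (0.609%). Each count with *dis2D* includes *gdt1*, and the call between *pfs2-F115H* and *yth1-R59C* was *shu1*. Both genes passed the filter through strains other than wt, so these counts do not support a difference from the share over all features. *gdt1* was higher in *dis2D* than in *ssu72D* (log2 difference 3.42, limma adjusted p = 0.000811), than in the libraries labelled ppn1D (3.93, adjusted p = 0.000132) and than in *swd22D* (4.19, adjusted p = 5.76e-05). None of 12 alternatives for each changed these 3 calls. Between *pfs2-F115H* and *yth1-R59C*, *gdt1* differed by 0.08 on the log2 scale (95% interval -1.39 to 1.54). The PAS strains differ by 1 base of the reporter signal. *gdt1* in PAS-T4G was 2.93 higher than in PAS-T4C (95% interval 1.46 to 4.40) and 1.16 higher than in PAS-T4A (95% interval -0.31 to 2.62), neither past the threshold after adjustment (limma, adjusted p = 0.275 and 0.734). Without PAS-T4C replicate 1 the difference to PAS-T4C was called (4.02, limma, adjusted p = 0.00516). Of all 5911 features, 1 was called between PAS-T4G and PAS-T4C (0.0169%) and 1 between PAS-T4G and PAS-T4A (0.0169%), and both times it was SPAC750.01. The difference to PAS-T4C was 3.02 (limma, adjusted p = 0.000331) and held under every alternative. The difference to PAS-T4A was 2.41 (limma, adjusted p = 0.0212), and it was lost in 8 of 12 alternatives, among them without PAS-T4A replicate 1 or replicate 2 (2.10 in both) and without PAS-T4G replicate 1 (2.56), replicate 2 (2.28) or replicate 3 (2.38).

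Some of these genes differed widely between libraries of 1 strain. A gene was called uneven in a strain where its highest library had at least 5 CPM and at least 4 times the lowest, the lowest being raised to the level of 3 reads. This held for 5 of the 45 end-proximal genes that reached 5 CPM in a library (11.1%), against 2.23% of the 5651 features that did so. *gdt1*, SPAC186.06 and SPAC750.01 are among the 5 and reached 5 CPM only in mutants. The 11.1% therefore does not support a difference from the share over all features. *gdt1* was uneven in PAS-T4A (73.4 CPM in replicate 3, 12.0 CPM in replicate 2) and in PAS-T4C (48.2 CPM in replicate 1, 0 CPM in replicate 3), and SPAC186.06 in PAS-T4A in the same libraries as *gdt1* (10.3 and 0 CPM). SPAC750.01 was uneven in *pfs2-F115H*, where *gdt1* was even. At the left end, SPAC212.04c was uneven in PAS-T4C, with 1.44, 0 and 8.80 CPM, and its highest library was the one without *gdt1* reads. SPAC869.09, a Con-6 family gene, had 1.58, 2.32 and 12.2 CPM in *ssu72D*. The PAS-T4A libraries were close in depth, at 1418489 to 1552582 reads, and those of PAS-T4C were less so, at 1691610 to 4171346 reads.

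At the left end the largest rise was that of *shu1* (SPAC1F8.02c), which encodes a cell-surface protein for the uptake of heme. It had 13.0, 8.61 and 9.53 CPM in *pfs2-F115H*, against 0.502, 1.73 and 0.269 CPM in wt, so that the libraries do not overlap. The mean was 12.4-fold that of wt, and the rise (limma, adjusted p = 8.53e-06) held under every alternative, with log2 fold changes between 2.47 and 3.80. Without wt replicate 2, which held most of the wt level, the ratio was 26.9-fold. In *yth1-R59C*, *shu1* had 0.514, 0.528 and 1.06 CPM, and the difference between *pfs2-F115H* and *yth1-R59C* was 2.74 (limma, adjusted p = 2.66e-05). It had no read in *dis2D*, where its upper limit was the level of 3 reads. No other mutant had *shu1* called.

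SPAC1F8.04c, annotated as a hydrolase, was lower in *ssu72D*, *dis2D* and *swd22D*. It had 6.14, 10.9 and 8.76 CPM in *ssu72D*, 16.1, 7.54 and 11.2 CPM in *dis2D* and 5.73, 4.85 and 2.31 CPM in *swd22D*, against 30.9, 30.3 and 18.0 CPM in wt. In the libraries labelled ppn1D it had 35.4, 20.3 and 27.0 CPM. It fell by 1.51 in *ssu72D* (limma, adjusted p = 0.000301), by 1.14 in *dis2D* (adjusted p = 0.00795) and by 2.39 in *swd22D* (adjusted p = 2.32e-07). Without *dis2D* replicate 2 the fall in *dis2D* was 0.88 (limma, adjusted p = 0.0684), and the call was lost. *dis2D* was higher than *swd22D* by 1.26 (limma, adjusted p = 0.00172), a call lost with edgeR (adjusted p = 0.0751) and without *swd22D* replicate 3, where the difference was 0.95 and under 2-fold.

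SPAC11D3.01c, of the Con-6 family, had 47.7, 48.0 and 51.6 CPM in *ssu72D*, against 24.6, 24.9 and 21.3 CPM in wt, a rise of 1.03 ± 0.16 (SE, limma, adjusted p = 1.85e-05). Without *ssu72D* replicate 3 the rise was 0.99 and without wt replicate 3 it was 0.96, under 2-fold. The other strains spread around wt. Higher were *dis2D*, at 40.5, 35.8 and 38.2 CPM, and *swd22D*, at 35.0, 37.8 and 39.9 CPM. Lower in every library were PAS-T4A, at 16.2, 16.0 and 18.7 CPM, and PAS-T4C, at 12.9, 13.6 and 13.4 CPM. So were the libraries labelled ppn1D, at 11.5, 11.6 and 11.8 CPM. The fall in the last group was 0.96 on the log2 scale (limma, adjusted p = 9.75e-05), just short of 2-fold. *dis2D* was higher than the libraries labelled ppn1D by 1.63 (limma, adjusted p = 9.22e-10).

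SPAC977.15, of the dienelactone hydrolase family, had 12.8, 12.2 and 8.23 CPM in *dis2D*, against 3.01, 3.31 and 3.23 CPM in wt, a rise of 1.51 ± 0.34 (SE, limma, adjusted p = 0.00286). It was also higher in *dis2D* than in *ssu72D* by 2.17 (limma, adjusted p = 1.8e-05) and than in *swd22D* by 1.41 (adjusted p = 0.00278). The difference to the libraries labelled ppn1D, 1.06 (limma, adjusted p = 0.029), was lost in 6 of 12 alternatives, among them without *dis2D* replicate 1 (0.95) or replicate 2 (0.99) and without ppn1D replicate 2 (1.02) or replicate 3 (1.07).

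**Figure D4:**
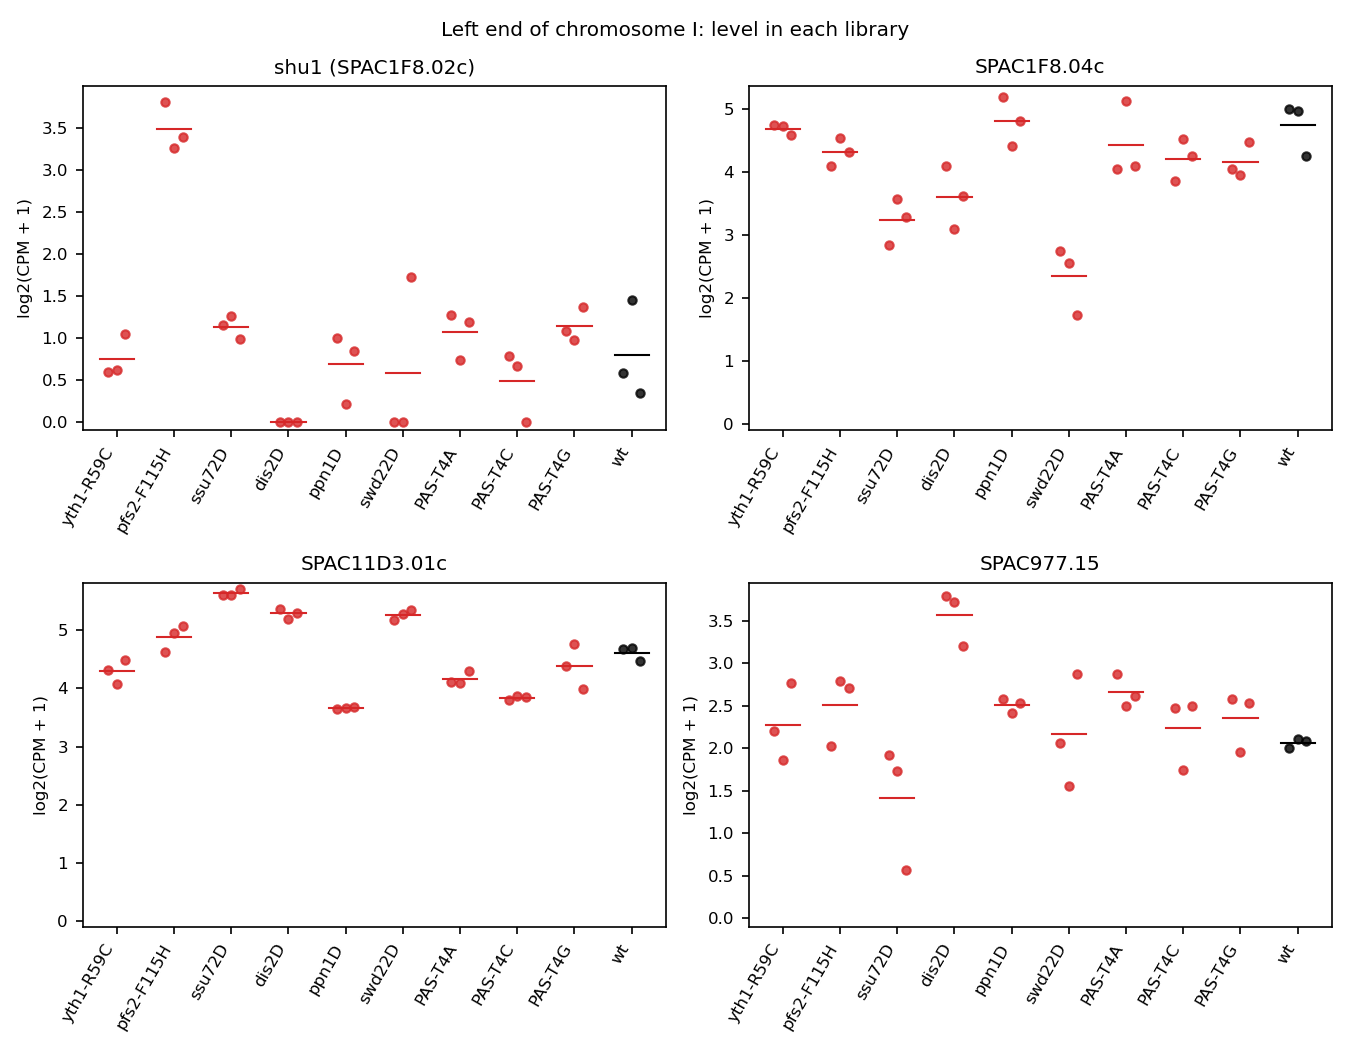
Level of *shu1*, SPAC1F8.04c, SPAC11D3.01c and SPAC977.15 on the log2(CPM + 1) scale in each of 30 libraries, by strain, with wt on the right; points are libraries and lines are strain means. *shu1* lay between 8.61 and 13.0 CPM in *pfs2-F115H*, and SPAC1F8.04c between 2.31 and 5.73 CPM in *swd22D*.

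The other falls that limma called were in 1 mutant each. *mmf2* (SPAC1039.10), for an isoleucine synthesis protein related to Pmf1, had no read in *swd22D*, against 3.01, 3.15 and 1.62 CPM in wt (limma, adjusted p = 0.0018). Against the level of 3 reads it was at least 1.19-fold lower, so that depth limits the size. In *dis2D*, *mmf2* had 0.642, 0.471 and 0.749 CPM, not called by limma (adjusted p = 0.0723) but called by edgeR (adjusted p = 0.0435), with no filter and in the 2-strain fit, and in PAS-T4G it was called without replicate 3 (limma, adjusted p = 0.032). *isp3*, the gene of a protein of the spore surface, had 0.636, 1.94 and 2.31 CPM in *swd22D*, against 4.51, 5.83 and 5.66 CPM in wt (limma, adjusted p = 0.0198). This call was lost without *swd22D* replicate 1 (adjusted p = 0.123), without wt replicate 2 (adjusted p = 0.0663), without wt replicate 3 (limma, adjusted p = 0.0607) and with a pseudocount of 0.1 (limma, adjusted p = 0.0991). edgeR also called *isp3* lower in *yth1-R59C* (adjusted p = 0.00903) and in *pfs2-F115H* (adjusted p = 0.0211), where limma called it in the 2-strain fit but not in the fit of all strains. PAS-T4A had *isp3* at 2.11, 2.66 and 1.29 CPM, called lower only in the 2-strain fit (limma, adjusted p = 0.0474). In PAS-T4G it was called lower without replicate 1 or without replicate 3 (limma, adjusted p = 0.0300 and 0.0221). *isp3* was higher in *dis2D* than in *swd22D* by 2.01 (limma, adjusted p = 0.000517), which held under every alternative. SPAC1039.08, a serine acetyltransferase gene that overlaps a neighbour on the same strand, had 6.36, 1.94 and 4.63 CPM in *swd22D*, against 9.78, 10.4 and 8.89 CPM in wt (limma, adjusted p = 0.0113), a call lost without *swd22D* replicate 2 (adjusted p = 0.131).

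In *ssu72D*, the amino acid permease gene SPAC1039.01 had 36.6, 37.6 and 24.8 CPM, against 73.2, 72.3 and 67.9 CPM in wt, a fall of 1.11 (limma, adjusted p = 2.44e-07). Without *ssu72D* replicate 3 the fall was 0.92, under 2-fold. In *pfs2-F115H* *mfs2*, for a membrane transporter of the MFS family, had 18.4, 15.1 and 18.3 CPM, against 39.4, 35.3 and 34.2 CPM in wt, a fall of 1.04 (limma, adjusted p = 1.33e-05). Without *pfs2-F115H* replicate 2 this was 0.95 and without wt replicate 1 it was 0.98. SPAC11D3.03c, uncharacterized, had 0.766, 1.61 and 0.529 CPM in *pfs2-F115H*, against 4.26, 3.15 and 2.15 CPM in wt (limma, adjusted p = 0.031). That call was lost without *pfs2-F115H* replicate 1 or replicate 3 and without wt replicate 1 or replicate 2, with adjusted p between 0.0779 and 0.13. In *yth1-R59C*, SPAC11D3.03c had 0.514, 2.11 and 1.24 CPM and was called lower by edgeR only (adjusted p = 0.034).

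The abundant genes moved by less than 2-fold. SPAC1039.02 had 770, 720 and 797 CPM in *yth1-R59C*, 744, 899 and 655 CPM in *swd22D* and 622, 611 and 618 CPM in *pfs2-F115H*, against 420, 363 and 389 CPM in wt. It had 553, 675 and 689 CPM in *dis2D* (log2 fold change 0.70, limma, adjusted p = 0.00274), 599, 590 and 608 CPM in *ssu72D* (0.62, adjusted p = 0.00577) and 551, 522 and 617 CPM in the libraries labelled ppn1D (0.52, limma, adjusted p = 0.0792). All libraries of *yth1-R59C*, *swd22D* and *pfs2-F115H*, of these 3 strains and of PAS-T4G lie above those of wt. *yth1-R59C*, *swd22D* and *pfs2-F115H* had log2 fold changes of 0.96, 0.96 and 0.66 (limma, adjusted p = 0.000151, 3.99e-05 and 0.00334). In PAS-T4C the libraries were far apart, at 611, 575 and 283 CPM. SPAC977.14c had 565, 552 and 693 CPM in *dis2D*, against 418, 352 and 304 CPM in wt (log2 fold change 0.76, limma, adjusted p = 7.92e-07). *cat1* had 267, 236 and 261 CPM in *dis2D* and 257, 286 and 274 CPM in PAS-T4G, against 183, 199 and 198 CPM in wt (log2 fold change 0.39 and 0.49, limma, adjusted p = 0.00308 and 0.000387). *yhb1* was lower in PAS-T4A, at 102, 91.8 and 127 CPM, against 182, 168 and 147 CPM in wt (log2 fold change -0.63, limma, adjusted p = 0.000646). SPAC11D3.02c had a log2 fold change of 0.44 in *dis2D* (210 CPM, against 155 CPM in wt) and of -0.40 in *ssu72D* (117 CPM), with limma adjusted p = 0.000621 and 0.00127.

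**Figure D5:**
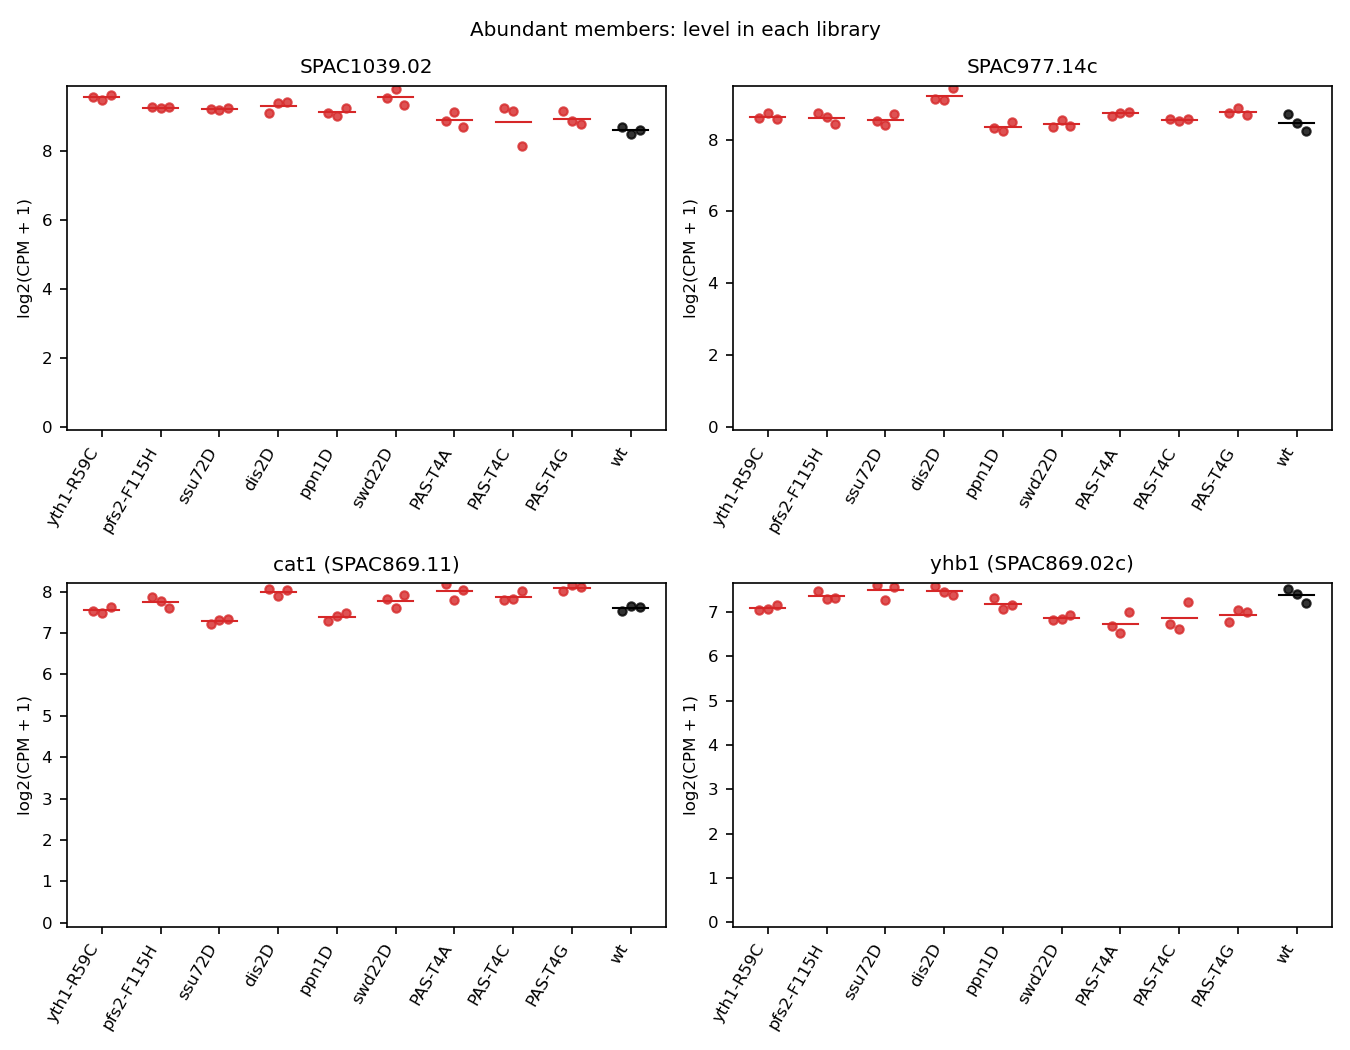
Level of SPAC1039.02, SPAC977.14c, *cat1* and *yhb1* on the log2(CPM + 1) scale in each of 30 libraries, by strain, with wt on the right; points are libraries and lines are strain means. SPAC1039.02 averaged 762 CPM in *yth1-R59C* and 766 CPM in *swd22D*, against 391 CPM in wt, a change of under 2-fold.

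With no minimum change, 7 of 50 end-proximal genes passed the adjusted p in *yth1-R59C* (3.86% of all features) and 10 in *pfs2-F115H* (19.0%). Both counts include *gdt1*, SPAC186.06, SPAC186.04c and SPAC750.01, which passed the filter through strains other than wt. Counts with such genes, here and in the PAS strains, do not support a difference from the share over all features. In PAS-T4A 4 passed (7.34%), in PAS-T4C 4 (3.77%), in PAS-T4G 7 (8.88%) and in the libraries labelled ppn1D 3 (2.44%). Of the others, 12 of 50 end-proximal genes passed the adjusted p in *ssu72D*, 9 of them lower, where 16.8% of all features passed. In *swd22D* 15 passed, 12 of them lower (20.0% of all features), and in *dis2D* 11 passed, 9 of them higher (12.0%). The median log2 fold change over the 50 genes was -0.12 in *ssu72D*, -0.20 in *swd22D* and 0.24 in *dis2D*, beside 0.02, -0.04 and 0.09 over all features. The *dis2D* count includes *gdt1*, and the medians cover every gene that passed the filter through strains other than wt. Neither that count nor the medians therefore support a difference from all features.

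By annotated role, the 13 transporters and permeases had a median of 38.4 CPM in wt, and 11 were tested. They gave 2 calls in 99 tests (2.02%), both lower (*mfs2* and SPAC1039.01), near the 1.56% of tests called over all features. *gdt1* and *shu1*, annotated only as a GDT1-like protein and as protein Shu1, were counted among the other genes below. The share and the direction of the transporter calls rest on that sorting. The sodium/proton antiporter gene *nhe1* and the aquaporin family gene SPAC977.17 stayed under 2-fold in every mutant, as did the sulfate transporter gene *sul2*, with 111, 100 and 131 CPM in *ssu72D*, against 70.5, 59.9 and 54.9 CPM in wt. The 34 enzyme genes had a median of 6.13 CPM in wt, and of the 22 tested, 5 were called, with 7 calls higher and 4 lower in 198 tests (5.56%). Of these higher calls, 3 were in SPAC186.06 and 3 in SPAC750.01, both without a read in wt. Of the 4 transcription factor genes (*toe4*, *klf1*, SPAC11D3.11c and SPAC11D3.17), limma called 0 and edgeR 0 in 36 tests, and 4 tests had an unadjusted p under 0.05. The 9 genes for helicases, GPI-anchored, ftm and Vel1p-domain proteins were too low for any test, and 5 of them had no read. The other 27 genes, of which 13 were tested, gave 10 calls higher and 3 lower in 117 tests (11.1%). Of the higher calls, 6 were in *gdt1*, 2 in SPAC186.04c and 1 in *shu1*. These genes, like SPAC186.06 and SPAC750.01, had wt means under 1 CPM and passed the filter through other strains. Neither share, 5.56% or 11.1%, therefore supports a difference from the share over all features.

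For comparison, 26 listed genes that assemble or oppose heterochromatin or are linked to telomeres were tested, and none was called in any mutant by limma or edgeR. Among 12 genes of the heterochromatin machinery, limma called 0 of 108 tests and edgeR 0, with log2 fold changes between -0.40 and 0.49. Of these tests 24 (22.2%) had an unadjusted p under 0.05, beside 23.1% of tests over all features, and 7 an adjusted p under 0.05. The heterochromatin protein gene *swi6* was among the 7, higher in *dis2D* with a log2 fold change of 0.49 (limma, adjusted p = 0.00897). For 5 antagonists, such as *epe1* and *mst2*, limma called 0 of 45 tests and edgeR 0, with 6 at an unadjusted and 2 at an adjusted p under 0.05. The larger of these 2 changes was that of *leo1*, of the Paf1 complex, in *swd22D* (log2 fold change -0.66, limma, adjusted p = 0.00108). For 9 genes of telomere proteins, such as *taz1* and *rap1*, limma called 0 of 81 tests and edgeR 0, with 15 at an unadjusted and 6 at an adjusted p under 0.05. Of these 6, 4 were in *pfs2-F115H*, all higher, where 19.0% of all features passed the adjusted p.

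At the ends of chromosome II, 39 of 75 rows were tested. Unlike on chromosome I, no row was left out by name. In *dis2D* 14 of them were called, with a median log2 fold change of 0.86, against 3 of the 50 end-proximal genes of chromosome I (8 with edgeR) and 2.01% of all features. In *yth1-R59C* 2 of the 39 were called (0.812% of all features), in *pfs2-F115H* 7 (3.13%), in *ssu72D* 7 (3.47%) and in *swd22D* 9 (2.89%). In each of the other 4 comparisons with wt at most 1 was called. The difference between the chromosomes was not tested, and edgeR counts are not given for chromosome II. Its rows that passed the filter through mutants were not set apart, so its counts do not support a difference from the share over all features.

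Among the end-proximal genes, over the 30 libraries, the log2(CPM + 1) of *gdt1* was most like that of its direct neighbours SPAC186.06 (Pearson r = 0.91) and SPAC186.04c (r = 0.83), then of SPAC11D3.17 at the opposite end (r = 0.71) and of SPAC750.01 (r = 0.71). Outside the end-proximal genes, the most similar features were *gyp2* (r = 0.78), *prp3* (r = 0.77), SPBP35G2.04c (r = 0.76), *rng10* (r = 0.75) and SPBC1778.09 (r = 0.73), which lie elsewhere in the genome. Libraries of 1 strain share their genotype, so the 30 points are not independent. Only genes that passed the filter were compared. SPAC186.06, SPAC186.04c and SPAC750.01 had no read in wt and passed it mainly through mutants in which *gdt1* was also high. Their r is therefore partly set by the filter. *gyp2* itself had a mean of 180 CPM in *pfs2-F115H* and 170 CPM in PAS-T4G, against 137 CPM in wt, a much smaller range than that of *gdt1*.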

How the data were processed

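Total RNA was sequenced as stranded single-end reads of 50 bases (TruSeq, HiSeq2500). The authors aligned the reads with STAR (version 2.7.3a) to the ASM294 assembly, counted uniquely mapping reads by strand with featureCounts, and deposited CPM per feature. Reads overlapping several features were not counted. In every library 100% of CPM values were whole multiples of 1 read (within 0.05), so reads were recovered. RefSeq ASM294v3 differs in version from the authors' build and gave only names, order, lengths and repeated windows; no coordinates are given.

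One limma model (version 3.58.1, R version 4.3.3) of log2(CPM + 1) covered the 10 strains, with trended variances; p-values of each comparison were adjusted by Benjamini-Hochberg across 5911 features. Comparisons between 2 mutants were added after seeing the data. Exact tests of 3 against 3 libraries cannot go under p = 0.1. Alternatives were a pseudocount of 0.1, no filter, median-of-ratios scaling, 2-strain fits, a replicate block, edgeR (version 4.0.16) on recovered reads, and each library left out. The fits were tested on simulated data with 200 changed genes.

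Named were genes called in any comparison, genes with 0 reads in 1 strain and at least 5 CPM in another, the 5 most abundant per kb, uneven genes, called list members, the targeted genes and the 5 features most like *gdt1*; *sul2*, *ftm4*, *nhe1*, SPAC977.17 and the low SPAC186 genes were added after their values were seen. The genes and lists were chosen with earlier results of these data known. The 7 small RNA samples were not analysed here.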

Additional observations from a re-analysis of the deposited data

How the results depend on the processing

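Of the 26 calls, 17 were kept in every alternative, 9 were lost in some and 0 reversed; among pairs not called, 16 were called in some alternative. With edgeR 5 genes were called in *ssu72D*, 8 in *dis2D*, 1 in the libraries labelled ppn1D, 3 in PAS-T4A and 2 in PAS-T4C. With a pseudocount of 0.1 there were 5 in *dis2D*, 1 in the libraries labelled ppn1D and 0 in PAS-T4C, with no filter 5 in *dis2D* and 5 in PAS-T4G, and in the 2-strain fit 6 in *dis2D*, 2 in PAS-T4A and 0 in PAS-T4C. Over all features, edgeR called 77 in *yth1-R59C*, against 48 by limma, and 18 in PAS-T4C, against 10. Leaving out 1 library gave 3 to 4 genes in *yth1-R59C*, 5 to 7 in *pfs2-F115H*, 1 to 3 in *ssu72D*, 3 in *dis2D*, 0 to 1 in the libraries labelled ppn1D, 3 to 7 in *swd22D*, 1 to 3 in PAS-T4A, 0 to 2 in PAS-T4C and 3 to 6 in PAS-T4G, and the F test passed for 35 to 41. Same-numbered libraries did not deviate together (correlations with wt between -0.17 and 0.20), so the numbers do not pair them, although each library labelled ppn1D correlated best with the wt library of its own number. With the replicate block the counts of calls were as without it, from 0 in the libraries labelled ppn1D to 7 in *pfs2-F115H*, and the F test passed for 36. Median-of-ratios scaling moved the median of all features in *pfs2-F115H* to 0.00, against 0.12 without it. The causes of these changes were not tested. Depth limits genes near 3 reads, and the log2(CPM + 1) scale understates their folds.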
